A study of Homo sapiens with 6 samples.

Results

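The genes described are those of the translation initiation factors, measured in the ovarian carcinoma line IGROV-1 (human, an established line) after culture with mouse ascites. Members were all array probes whose gene symbol in the platform annotation begins with EIF and a digit, without EIF2AK3. The rule found 53 of the 18852 genes that the annotation names, with 76 of the 48801 probes of the array, and 59 of the 76 probes, of 48 genes, lay above background often enough to be tested. A probe was kept when its detection p-value was under 0.01 on at least 3 of the 6 arrays, which left 13713 probes of the whole array. CpG ascites came from tumour-bearing mice that had received a CpG oligodeoxynucleotide, a ligand of Toll-like receptor 9, into the peritoneum at a dose of 20 µg each. Saline ascites came from tumour-bearing mice given saline. Both kinds of mice carried IGROV-1 cells as ascites, and in both groups cultured IGROV-1 cells were kept for 24 h in medium mixed with an equal part of centrifuged ascites. RNA was measured on 3 arrays per group, so every cell in both groups was exposed to tumour ascites and no array of cells in plain medium entered the comparison. There were 3 mice per group. The strain of the mice, which dosing schedule (a single dose or daily doses) each CpG ascites followed, and the origin of replicates in separate mice or cultures are details not given in the sources used here. A p-value therefore reflects the spread of these arrays alone, and that spread may be technical.

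Initiation loads the ribosome onto an mRNA. The factor eIF4E binds the mRNA cap and joins the scaffold eIF4G and the helicase eIF4A as eIF4F, while eIF2 with GTP brings the initiator tRNA to the small subunit, helped by eIF1, eIF1A, eIF3 and eIF5, and eIF5B joins the large subunit. Cells tune the process by 4E-binding proteins, which hold eIF4E back until the kinase mTOR phosphorylates them, and by kinases that phosphorylate the alpha subunit of eIF2 and so block its recycling by eIF2B. In tumour cells, a high supply of eIF4E is known to favour translation of growth and survival mRNAs.

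Of all 59 member probes, the one with the smallest p was that of EIF4E, followed by a probe of EIF4H, and EIF2AK2 is the member known as an interferon-induced gene. Their promoters, from 250 bases before to 50 bases after the annotated start, are shown because the regulation of EIF4E by MYC through E-boxes and of EIF2AK2 by interferon is textbook knowledge. The sequences are from RefSeq (GRCh38.p14), each on the strand of its gene, at chr4:98929084-98929383 (minus strand) for EIF4E, chr7:74174106-74174405 (plus strand) for EIF4H and chr2:37156931-37157230 (minus strand) for EIF2AK2. Capitals mark the E-box CACGTG in EIF4E and EIF4H, and, in EIF2AK2, the core of the interferon-stimulated response element, searched as GAAA, 2 bases of any kind and GAAA again. The EIF2AK2 promoter also holds an E-box, which is left in lower case.
EIF4E: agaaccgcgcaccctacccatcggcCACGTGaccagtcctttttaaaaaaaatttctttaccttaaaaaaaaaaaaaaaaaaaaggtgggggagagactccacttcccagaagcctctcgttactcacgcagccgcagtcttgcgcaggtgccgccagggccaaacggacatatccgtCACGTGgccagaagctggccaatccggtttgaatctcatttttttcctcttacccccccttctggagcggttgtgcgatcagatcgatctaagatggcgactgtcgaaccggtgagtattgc
EIF4H: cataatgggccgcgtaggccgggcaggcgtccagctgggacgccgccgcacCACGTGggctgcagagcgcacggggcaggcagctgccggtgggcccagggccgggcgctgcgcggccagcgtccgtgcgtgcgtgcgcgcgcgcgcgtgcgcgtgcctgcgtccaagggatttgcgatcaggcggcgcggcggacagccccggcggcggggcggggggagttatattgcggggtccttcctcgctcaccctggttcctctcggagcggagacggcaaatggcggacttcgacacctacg
EIF2AK2: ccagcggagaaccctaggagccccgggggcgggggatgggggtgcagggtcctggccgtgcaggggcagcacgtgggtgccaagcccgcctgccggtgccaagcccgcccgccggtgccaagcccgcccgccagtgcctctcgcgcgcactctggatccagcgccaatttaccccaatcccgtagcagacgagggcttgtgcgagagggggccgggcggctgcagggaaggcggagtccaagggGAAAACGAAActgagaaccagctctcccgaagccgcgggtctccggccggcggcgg

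The EIF4E promoter held 2 E-boxes, starting 225 and 72 bases before the annotated start, and the EIF4H promoter held 1, starting 199 bases before it. EIF4E had lower and EIF4H higher values with CpG ascites. In EIF2AK2 the element, with the letters GAAAACGAAA, began 6 bases before the start. Searched on both strands, CACGTG stood in 18.6% of the 59 promoters listed for 44 member genes, against 7.26% of all 35116 promoters of the same length, and the core of the response element in 10.2% against 3.57%. An occurrence of 1 motif cannot lie inside the other. A match describes these letters only and is not evidence of binding.

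Mean probe intensity ran from 587 to 788 per array. CpG ascites replicate 1 stood apart, with a Pearson correlation across the kept probes of 0.948 to 0.958 with the other 5 arrays, which correlated with each other at 0.978 to 0.992. On that array the 2 probes of KRT18, an epithelial keratin, had 4.75 and 5.29. They had 7.03 to 7.57 on the other CpG arrays and 7.08 to 7.71 on the saline arrays. Both were above background on 2 of the 3 CpG arrays and on all 3 saline arrays. KRT18 is only 1 of the 12 markers of ovarian carcinoma and epithelium counted below, and the part of this in the results was not tested. Where leaving out CpG ascites replicate 1 turned the sign of a printed change or moved it by over 1.5 times, the value without that array is given too. Of 12 markers of ovarian carcinoma and epithelium, 5 (PAX8, EPCAM, KRT7, KRT19 and CLDN3) were above background on all 6 arrays and 4 on none. Of the 6 leukocyte genes with a probe, 1 (CD68) was above it on all 6 and 4 on none. Of 7 genes of fibroblasts and mesothelium, 0 were above it on all 6 and 7 on none. The values below are log2 intensities after background correction and quantile normalization, and a change is CpG ascites minus saline ascites. Levels of different probes are not comparable. Each array measured RNA of many cells together, so fewer cells with a transcript and less of it per cell cannot be told apart.

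Initiation factor probes lay on both sides of the saline level. With limma and Benjamini-Hochberg adjustment over all kept probes, 0 of the 59 member probes passed a threshold of 0.05, as did 0% of all probes tested, and the smallest adjusted p among members was 0.208, for EIF4E. Before adjustment, 4 member probes with higher and 7 with lower values had a p under 0.05, or 18.6% of the 59, beside 12.8% of all kept probes (6.86% higher and 5.97% lower). The 3 CpG arrays lay entirely above the 3 saline arrays at 7 member probes and entirely below them at 9, or 27.1% in both directions, beside 20.7% of all probes (10.9% higher and 9.82% lower). For a single probe, the exact permutation test over 3 against 3 arrays cannot give a two-sided p below 0.1, which is the value at each of these 16 probes. The median change of the 59 probes was 0.03, with 33 above and 26 below 0, beside a median of -0.00037 over all probes. Without CpG ascites replicate 1 the median was 0.012 for the members and 0.012 for all probes. The median size of a change, whatever its sign, was 0.165 for members and 0.174 for all probes. When arrays were scaled to a common median in place of quantile normalization, 4 member probes were higher and 1 was lower at an unadjusted p under 0.05, or 8.47%, beside 9.03% of all probes. That scaling also moved the median change of all probes to 0.08, so the split by direction depends on it.

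**Figure D1:**
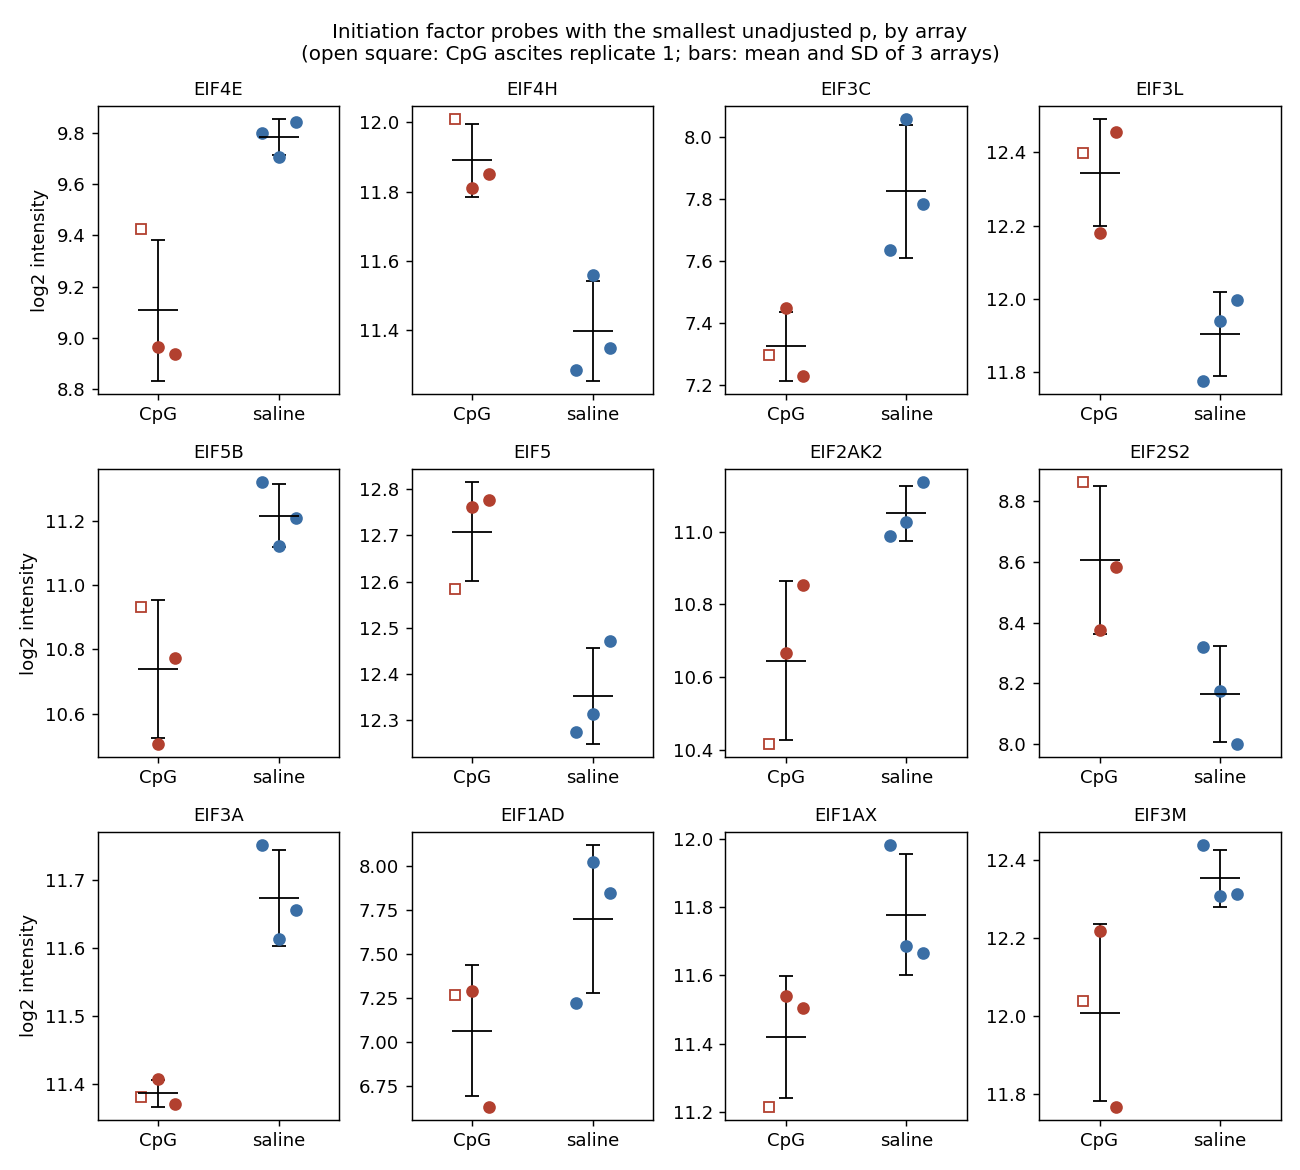
Log2 intensity (vertical axis, a separate range in each panel) of the 12 initiation factor probes with the smallest unadjusted p on 3 CpG ascites and 3 saline ascites arrays; each point is an array, the open square is CpG ascites replicate 1, and bars give mean and SD. In 11 of the 12 panels the groups do not overlap, and EIF1AD is the exception. The panels were picked by p from these same arrays, which favours groups that do not overlap. Over all 59 kept member probes the groups do not overlap at 16, or 27.1%, beside 20.7% of all kept probes.

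Cap recognition gave the largest difference among the members. EIF4E, the cap-binding protein, had a log2 intensity of 9.42, 8.96 and 8.94 on the 3 CpG ascites arrays, against 9.80, 9.71 and 9.84 on the 3 saline ascites arrays. Every CpG array lay below every saline array, and CpG ascites replicate 1 was the closest to them. The change was -0.67 ± 0.16 (SE), a 1.60-fold lower level with CpG ascites, with an adjusted p of 0.208 in limma. Without CpG ascites replicate 1 it was -0.83 ± 0.12 with an adjusted p of 0.0561 in limma, still not past the threshold, and over all settings the adjusted p ran from 0.0561 to 0.599. The unadjusted p was under 0.05 in all 16 settings run, and the change ran from -0.83 to -0.57 over them. These settings reuse the arrays from which EIF4E was chosen by its p, so they are no independent support. Among the 12 probes with the smallest p, EIF4H also had such a p in 16 settings, and EIF3M had the fewest, 7. The other EIF4E probes on the array were above background nowhere, so the result rests on 1 probe. Among the related cap-binding genes, EIF4E2, whose product competes for the cap and represses translation, had 11.27, 11.35 and 11.20 with CpG ascites, against 11.18, 11.38 and 11.23 with saline ascites, a change of 0.01 ± 0.12. The 2 kept probes of EIF4E3 had changes of 0.12 ± 0.13 and 0.14 ± 0.17, or 0.05 and 0.03 without CpG ascites replicate 1. The difference between EIF4E and its relatives was not tested.

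Among the helicases and their helpers, the 2 probes of EIF4H had unlike changes. EIF4H, which stimulates the helicase eIF4A, had 12.01, 11.81 and 11.85 with CpG ascites, against 11.29, 11.56 and 11.35 with saline ascites, at the first of its 2 probes. The groups did not overlap there, and the change was 0.49 ± 0.13 (SE), a 1.41-fold higher level, with an adjusted p of 0.256 in limma. At the second EIF4H probe, which the annotation assigns to another transcript of the gene, values were 12.42, 12.17 and 12.27 with CpG ascites, against 12.36, 12.26 and 12.08 with saline ascites. That change was 0.05 ± 0.14, and its sign turned without CpG ascites replicate 1 (-0.015), so the higher level was seen at 1 of 2 probes. EIF4A1, the main helicase of eIF4F, had 15.05, 15.10 and 15.27 with CpG ascites, against 15.04, 15.38 and 15.17 with saline ascites. The groups were mixed, with a change of -0.06 ± 0.14, which turned to 0.095 with median scaling and was -0.013 without CpG ascites replicate 1. EIF4A2, its close paralog, had 0.01 ± 0.12, or -0.045 without CpG ascites replicate 1. EIF4A3, a helicase of the exon junction complex rather than of eIF4F, had 0.12 ± 0.13, or 0.03 without that array. EIF4B, another helper of the helicase, had 12.66, 11.81 and 12.44 with CpG ascites, against 11.89, 11.91 and 12.18 with saline ascites. Its second CpG array was the lowest of all 6, and the change was 0.31 ± 0.23, or 0.13 ± 0.20 without CpG ascites replicate 1.

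EIF4G1, the scaffold of eIF4F, differed between the CpG arrays themselves. At 1 probe it had 10.50, 12.34 and 12.83 with CpG ascites, against 12.29, 12.36 and 12.13 with saline ascites, and at the other 8.61, 10.86 and 11.32, against 10.79, 10.77 and 10.95. At both probes CpG ascites replicate 1 was the lowest of the 6 arrays, 3.40-fold and 4.69-fold below the saline mean, and CpG ascites replicate 3 was the highest. The fitted changes were -0.37 ± 0.53 (SE) and -0.58 ± 0.62 with adjusted p of 0.782 and 0.706 in limma. Without CpG ascites replicate 1 they turned to 0.32 ± 0.17 and 0.25 ± 0.16, with adjusted p of 0.422 and 0.519 in limma, within ranges of 0.422 to 0.99 and 0.417 to 0.91 over all settings. EIF4G1 was singled out because its values depend on that array. On CpG ascites replicate 1, the 2 EIF4G1 probes were the only member probes more than 2-fold below the saline mean, where 5.08% of all kept probes were. EIF4G2, the eIF4G relative also called DAP5 that does not bind eIF4E, showed no such drop: its 3 probes had changes of -0.02 ± 0.12, 0.20 ± 0.17 and 0.05 ± 0.13, or -0.07, 0.31 and 0.01 without that array.

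**Figure D2:**
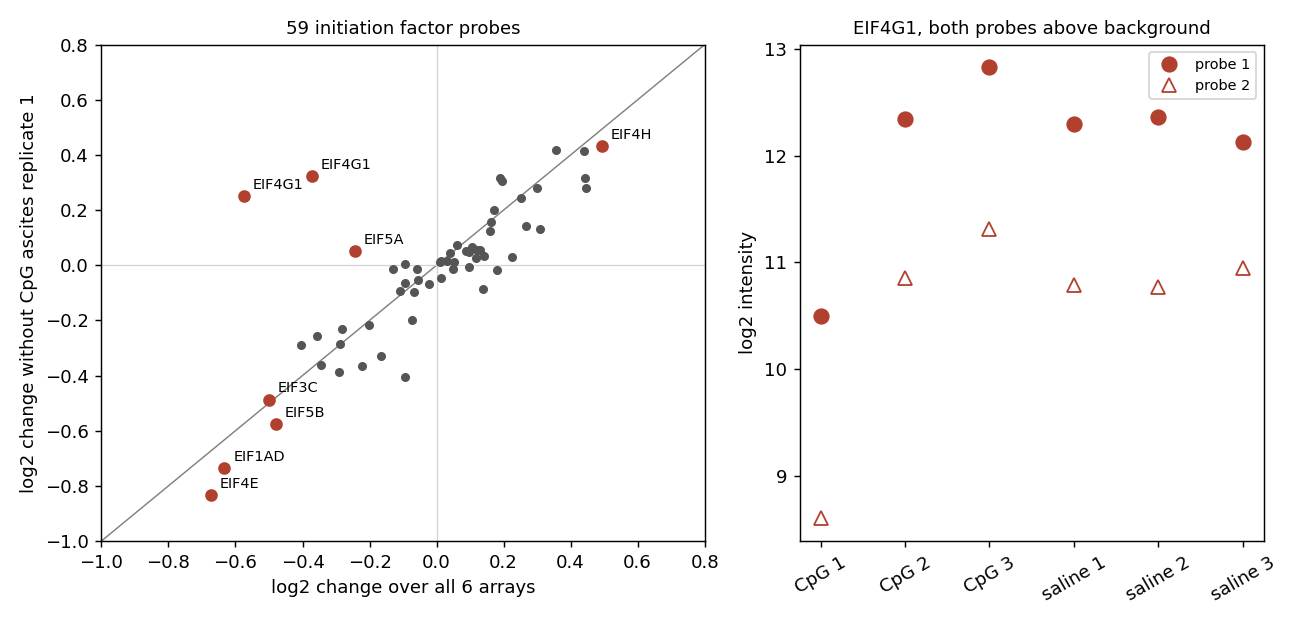
Left, the log2 change (CpG ascites minus saline ascites) of each of the 59 kept initiation factor probes over all 6 arrays (horizontal axis) and without CpG ascites replicate 1 (vertical axis), with a line of equality and a few genes marked; right, log2 intensity of the 2 kept EIF4G1 probes on each array. The EIF4G1 probes move from below 0 to 0.32 and 0.25, while EIF4E moves to -0.83.

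The inhibitors and partners of eIF4E had values close to the saline level. All 4 kept probes, of EIF4EBP1, EIF4EBP2, EIF4EBP3 and EIF4ENIF1, had changes above 0, from 0.04 to 0.22, but none reached an unadjusted p of 0.05 and in none did the groups separate. EIF4EBP2, a 4E-binding protein, had 9.55, 8.83 and 9.11 with CpG ascites, against 9.04, 8.87 and 8.90 with saline ascites. Its second CpG array was the lowest of the 6, the change was 0.22 ± 0.19 (SE), and without CpG ascites replicate 1 it was 0.03 ± 0.14. EIF4EBP3 had 0.18 ± 0.20, which turned to -0.02 ± 0.14 without that array. EIF4ENIF1, which carries eIF4E into the nucleus, had 0.13 ± 0.13, or 0.06 ± 0.13 without it, and EIF4EBP1 had 0.04 ± 0.18. The median of the 4 probes was 0.15 over all arrays and 0.04 without CpG ascites replicate 1.

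Among the subunits of eIF2, 1 of 3 genes had groups that did not overlap, where 20.7% of all kept probes did. EIF2S2 (beta) had 8.86, 8.38 and 8.58 with CpG ascites, against 8.32, 8.17 and 8.001 with saline ascites, and every CpG array lay above every saline array. The change was 0.44 ± 0.16 (SE), a 1.36-fold higher level, with an adjusted p of 0.348 in limma. EIF2S1, the alpha subunit that carries the regulatory phosphorylation site, had 8.66, 8.34 and 8.10 with CpG ascites, against 8.70, 8.66 and 8.40 with saline ascites. These groups overlapped, and its change was -0.22 ± 0.17, or -0.37 ± 0.15 without CpG ascites replicate 1. EIF2S3 (gamma), which binds GTP and the tRNA, had 0.10 ± 0.13, or 0.05 without that array. Of the factors that deliver tRNA without eIF2, EIF2A had 0.03 ± 0.12, or 0.016 without that array. EIF2D had 0.14 ± 0.23, which turned to -0.09 ± 0.18 without CpG ascites replicate 1.

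The exchange factor eIF2B, which reloads eIF2 with GTP, had 4 of 5 kept probes above the saline level and 0 at an unadjusted p under 0.05. Of all 13713 kept probes, 6839 lay above the saline level and 12.8% had such a p. EIF2B1 (alpha) had 10.04, 9.87 and 10.10 with CpG ascites, against 9.47, 9.81 and 9.83 with saline ascites, with a change of 0.30 ± 0.15 (SE) and an adjusted p of 0.438 in limma. EIF2B2 (beta) had 11.58, 11.56 and 11.79 with CpG ascites, against 11.50, 11.47 and 11.45 with saline ascites, and 0.17 ± 0.12. In both genes the groups did not overlap, but the nearest arrays lay close together. Over all kept probes, 10.9% were higher with groups apart. The 2 kept probes of EIF2B4 (delta) had 0.10 ± 0.14, which turned to -0.0081 without CpG ascites replicate 1, and 0.01 ± 0.12, and EIF2B5, the catalytic epsilon subunit, had -0.07 ± 0.12.

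All 3 eIF2 alpha kinases of the rule had lower values with CpG ascites, but the changes of EIF2AK1 and EIF2AK4 were smaller than their SE. Of all 13713 kept probes, 6874 had lower values, and 9.82% were lower with groups apart. EIF2AK2, the double-stranded RNA sensor PKR whose promoter is shown above, had 10.42, 10.67 and 10.85 with CpG ascites, against 10.99, 11.03 and 11.14 with saline ascites. The groups did not overlap, and CpG ascites replicate 1 was the lowest array. The change was -0.40 ± 0.15 (SE), a 1.32-fold lower level with an adjusted p of 0.342 in limma, and -0.29 ± 0.13 without CpG ascites replicate 1. EIF2AK1, the haem-regulated kinase HRI, had 13.19, 13.29 and 13.28 with CpG ascites, against 13.30, 13.39 and 13.35 with saline ascites. Its groups were also apart, although the nearest CpG and saline arrays nearly met, with a change of -0.09 ± 0.11, or -0.06 ± 0.12 without CpG ascites replicate 1. EIF2AK4, the amino acid sensor GCN2, had -0.11 ± 0.12 with overlapping groups. The remaining eIF2 alpha kinase, EIF2AK3 (PERK, the sensor of the endoplasmic reticulum), which is no member and was read with the initiation cofactors, had 8.62, 7.71 and 6.95 with CpG ascites, against 7.48, 7.35 and 7.44 with saline ascites. CpG arrays were both its highest and its lowest, and its change was 0.34 ± 0.37, which turned to -0.09 ± 0.21 without CpG ascites replicate 1.

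Factors of start codon selection had values on both sides of the saline level, 1 probe higher and 5 lower. EIF5, which makes eIF2 hydrolyse its GTP once the start codon is found, had 12.58, 12.76 and 12.78 with CpG ascites, against 12.28, 12.31 and 12.47 with saline ascites. The groups did not overlap, and the change was 0.36 ± 0.13 (SE), a 1.28-fold higher level, with an adjusted p of 0.330 in limma. EIF1AX, the eIF1A gene on the X chromosome, had 11.22, 11.54 and 11.50 with CpG ascites, against 11.98, 11.69 and 11.67 with saline ascites, with a change of -0.36 ± 0.15 and an adjusted p of 0.389 in limma. Its other kept probe had 9.30, 9.13 and 8.89 with CpG ascites, against 9.25, 9.29 and 9.66 with saline ascites. There the groups overlapped, the change was -0.29 ± 0.17, and both probes had the same sign. EIF1AD, named for an eIF1A-like domain and not an established initiation factor, had 7.27, 7.29 and 6.64 with CpG ascites, against 7.22, 8.03 and 7.85 with saline ascites. The first saline array lay below 2 of the CpG arrays, and the change was -0.63 ± 0.26 with an adjusted p of 0.375 in limma. EIF1, which keeps the scanning ribosome open, had 13.28, 13.56 and 13.59 with CpG ascites, against 13.49, 13.65 and 13.57 with saline ascites, a change of -0.09 ± 0.14 that became 0.0060 without CpG ascites replicate 1. Its paralog EIF1B had -0.07 ± 0.16, or -0.20 ± 0.14 without that array.

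The 13 measured subunits of eIF3, the scaffold of the small-subunit complex, lay on both sides of the saline level. At the brightest probe of a gene, 8 had higher and 5 had lower values with CpG ascites, and over the 16 kept probes changes ran from -0.50 to 0.44 with a median of 0.10. Of these probes 1 was higher and 2 were lower at an unadjusted p under 0.05, and the groups were apart at 2 higher and 4 lower probes. Over all kept probes the shares were 6.86% higher and 5.97% lower at that p, and 10.9% higher and 9.82% lower for groups apart. On the lower side, EIF3C had 7.30, 7.45 and 7.23 with CpG ascites, against 7.63, 8.06 and 7.78 with saline ascites, with a change of -0.50 ± 0.15 (SE) and an adjusted p of 0.279 in limma. EIF3C has a nearly identical copy in the genome, EIF3CL, and the probe sequence, which would show whether it separates them, was not used here. EIF3A, the largest subunit, had 11.38, 11.41 and 11.37 with CpG ascites, against 11.75, 11.61 and 11.66 with saline ascites. The CpG arrays differed among themselves by less than any of them differed from a saline array, and the change was -0.29 ± 0.11 with an adjusted p of 0.367 in limma.

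Also lower was EIF3E, with 13.49, 13.60 and 13.67 with CpG ascites, against 13.69, 14.02 and 13.89 with saline ascites and a change of -0.28 ± 0.14 (SE). Its groups did not overlap, although the nearest CpG and saline arrays nearly met. EIF3M had 12.04, 12.22 and 11.77 with CpG ascites, against 12.44, 12.31 and 12.31 with saline ascites at 1 probe, where the change was -0.35 ± 0.15 with an adjusted p of 0.391 in limma. At its other probe the values were 12.32, 12.72 and 12.64, against 12.55, 12.70 and 12.81, with a change of -0.13 ± 0.15, or -0.01 ± 0.13 without CpG ascites replicate 1, so its groups were apart at 1 probe of 2. EIF3J, a loosely bound subunit, had -0.17 ± 0.17, or -0.33 ± 0.13 without CpG ascites replicate 1.

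On the higher side of eIF3, EIF3L had 12.40, 12.18 and 12.45 with CpG ascites, against 11.78, 11.94 and 11.997 with saline ascites. Every CpG array lay above every saline array, with a change of 0.44 ± 0.14 (SE), a 1.36-fold higher level, and an adjusted p of 0.283 in limma. EIF3D, a subunit known to bind the cap of some mRNAs, had 12.94, 12.27 and 12.63 with CpG ascites, against 12.29, 11.98 and 12.25 with saline ascites. The lowest CpG array fell just under the highest saline array, and the change was 0.44 ± 0.19, or 0.28 ± 0.16 without CpG ascites replicate 1. EIF3H had 11.82, 11.69 and 11.71 with CpG ascites, against 11.62, 11.61 and 11.50 with saline ascites, apart but by little, and 0.16 ± 0.12. The 3 kept probes of EIF3B had 0.25 ± 0.16, 0.19 ± 0.18 and 0.11 ± 0.12, or 0.24, 0.32 and 0.06 without that array. EIF3F had 0.27 ± 0.15 and EIF3K 0.09 ± 0.12, or 0.14 and 0.05 without it. EIF3I had 0.16 ± 0.15 and EIF3G 0.06 ± 0.15. In EIF3G and EIF3I the groups overlapped, as they did in EIF3F, EIF3K and every EIF3B probe.

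**Figure D3:**
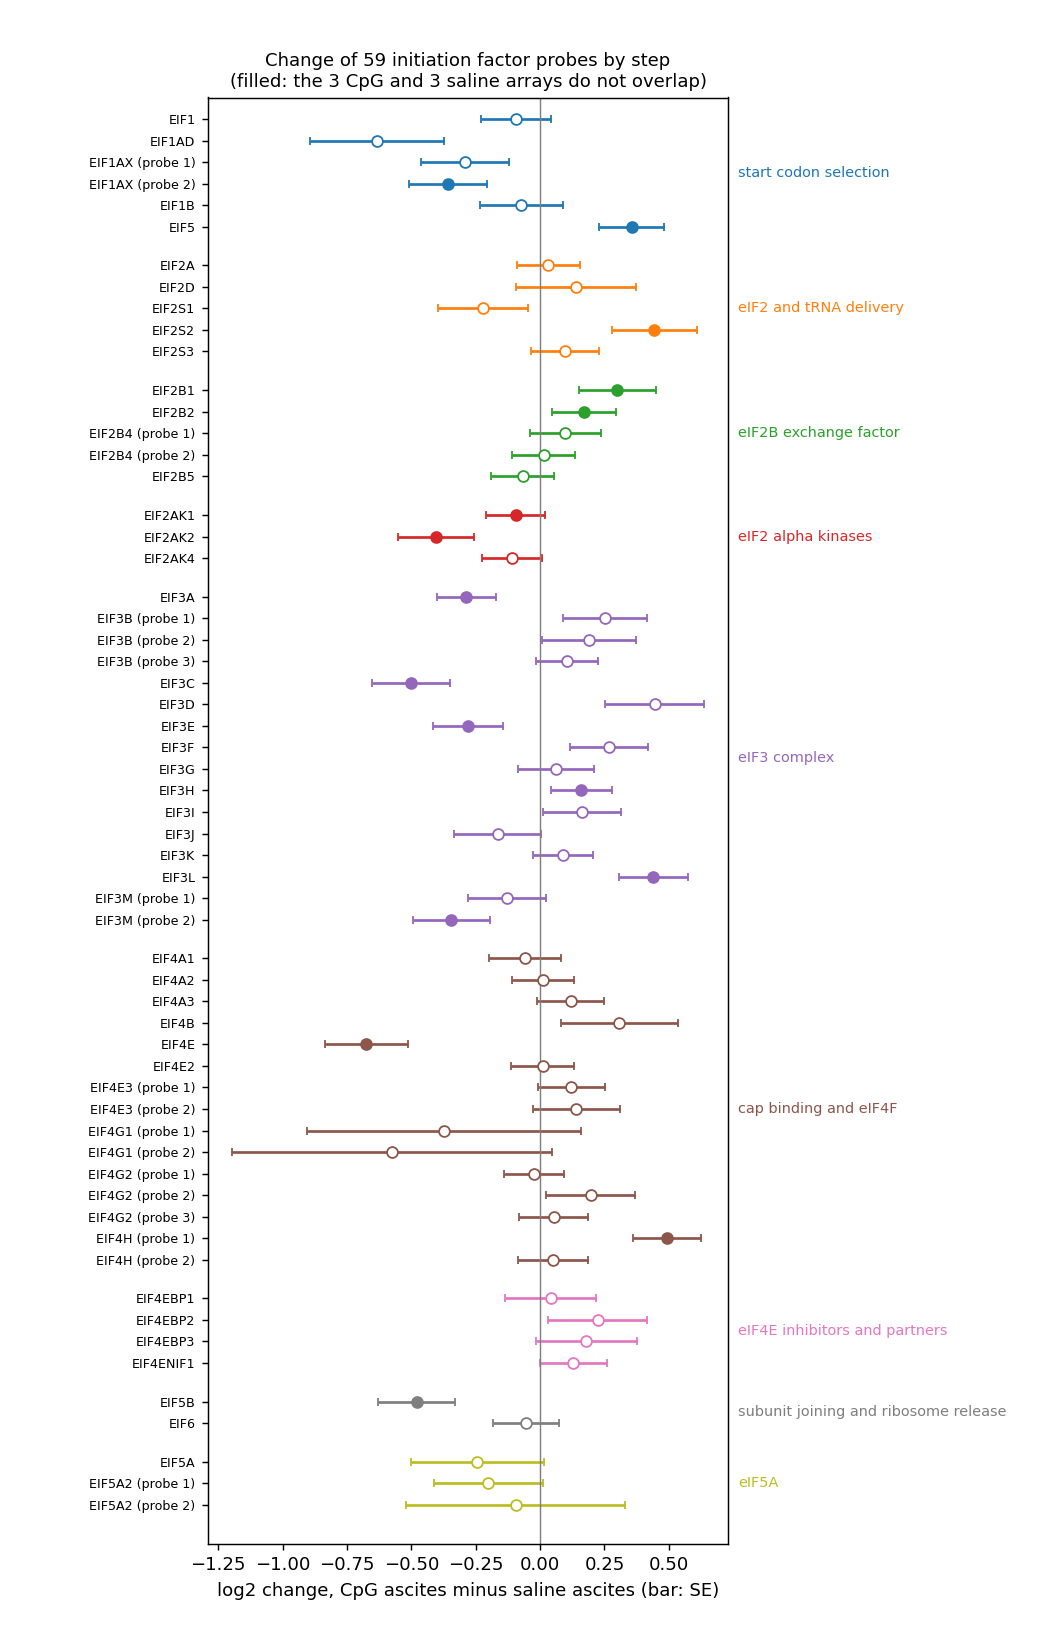
Log2 change, CpG ascites minus saline ascites (horizontal axis, bars give the SE), of the 59 kept initiation factor probes, grouped by step of initiation; filled points mark the 16 probes whose 3 CpG and 3 saline arrays do not overlap. Among the filled points EIF4E lies lowest, at -0.67, and EIF4H highest, at 0.49.

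At subunit joining, EIF5B, the GTPase that brings in the large subunit, had 10.93, 10.51 and 10.77 with CpG ascites, against 11.32, 11.12 and 11.21 with saline ascites. The groups did not overlap, and the change was -0.48 ± 0.15 (SE), a 1.39-fold lower level, with an adjusted p of 0.283 in limma. Without CpG ascites replicate 1 it was -0.58 ± 0.14 with an adjusted p of 0.134 in limma, within a range of 0.134 to 0.679 over all settings. EIF6, which keeps free subunits apart, had 12.08, 11.93 and 12.24 with CpG ascites, against 12.11, 12.15 and 12.16 with saline ascites. CpG arrays were both the lowest and the highest, and the change of -0.05 ± 0.13 turned to 0.038 with median scaling. EIF5A, a factor now known to act mainly in elongation, had 11.66, 12.41 and 12.70 with CpG ascites, against 12.33, 12.55 and 12.62 with saline ascites. The first CpG array was the lowest of the 6, the change was -0.24 ± 0.26, and without that array it was 0.05 ± 0.15. Its paralog EIF5A2 had -0.20 ± 0.21, and a second probe, above background on 4 arrays, had -0.10 ± 0.43, or -0.41 ± 0.39 without CpG ascites replicate 1.

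The members that could not be tested were 17 probes, of which 16 were above background on no array and 1, of EIF5, on 2 arrays. For 5 genes no probe was kept, namely EIF1AY, EIF3IP1, EIF3J-DT, EIF4E1B and EIF5AL1. EIF3IP1 is a pseudogene, EIF3J-DT a non-coding transcript that diverges from EIF3J, and EIF4E1B a relative of EIF4E best known from oocytes.

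Leaving out CpG ascites replicate 1 changed the direction of 9 of the 59 member probes, both of EIF4G1 and 1 each of EIF1, EIF2B4, EIF2D, EIF4A2, EIF4EBP3, EIF4H and EIF5A. Without it, an unadjusted p under 0.05 was found at 3 member probes with higher and 8 with lower values, or 18.6%, beside 14.9% of all probes (6.82% higher and 8.06% lower), and 8 of these 11 were among the 11 found with all arrays. The adjusted test called 0 member probes in this setting, beside 0.153% of all probes (0.0219% higher and 0.131% lower). The groups were then apart at 33.9% of member probes, beside 32% of all probes (16.4% higher and 15.6% lower), a share close to the background. Without CpG ascites replicate 3 the count of member probes at an unadjusted p under 0.05 was 6, or 10.2%, beside 14.6% of all probes. It was 5, or 8.47%, without saline ascites replicate 1, beside 7.37% of all probes, and also 5 without saline ascites replicate 2, beside 7.02%. Without saline ascites replicate 3 it was 6, or 10.2%, beside 8.25% of all probes. In these 4 settings the members' share was near the background or below it.

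Other genes of translation were read beside the members, from lists of 65 genes of which 55 were measured. An unadjusted p under 0.05 was found for 2 with higher and 6 with lower values, beside 12.8% of all kept probes (6.86% higher and 5.97% lower), 0 passed the adjusted test, and their median change was 0.02. The list of the eIF2 stress response and of mTOR signalling to initiation also holds the eIF4E kinases MKNK1 and MKNK2. Of its 20 measured genes, 2 had higher and 2 lower values at that p, to be read against the same shares. MKNK1, a kinase that phosphorylates eIF4E, had 8.57, 8.52 and 8.53 with CpG ascites, against 7.86, 8.11 and 8.09 with saline ascites. The groups were apart, with a change of 0.52 ± 0.12 (SE), a 1.44-fold higher level, and an adjusted p of 0.207 in limma. DEPTOR, an inhibitor subunit of the mTOR complexes, had 10.13, 9.73 and 9.64 with CpG ascites, against 8.82, 9.08 and 9.28 with saline ascites. Its change was 0.77 ± 0.18, a 1.71-fold higher level, with an adjusted p of 0.207 in limma.

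PPP1R15B, the constitutive partner of the phosphatase that removes the eIF2 alpha phosphate, had 7.57, 7.19 and 7.02 with CpG ascites, against 8.16, 7.99 and 7.69 with saline ascites. The groups did not overlap, and the change was -0.69 ± 0.19 (SE), a 1.61-fold lower level, with an adjusted p of 0.264 in limma. Without CpG ascites replicate 1 it was -0.84, with an adjusted p of 0.0877 in limma, within a range of 0.0877 to 0.674 over all settings. In the eIF2 stress response, ATF4, its central transcription factor, had -0.07 ± 0.14 with overlapping groups, or -0.14 without CpG ascites replicate 1. Of its targets, DDIT3 had 0.19 ± 0.13 (0.10 without that array) and ASNS -0.18 ± 0.12. Both had groups apart, as had 20.7% of all kept probes, but in opposite directions. The groups overlapped in PPP1R15A, TRIB3, CHAC1 and SESN2 of the same list. PPP1R15A had -0.19 ± 0.17 (-0.04 without that array) and TRIB3 -0.03 ± 0.15 (0.10 without it). CHAC1 had 0.20 ± 0.18 and SESN2 0.17 ± 0.21. RPS6KB1, the S6 kinase below mTOR, had -0.36 ± 0.15 with groups apart. All genes of this paragraph other than PPP1R15B were added after their values were seen.

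Of 22 initiation cofactors, 4 had lower values with an unadjusted p under 0.05 and 0 had higher ones, where 5.97% of all kept probes had lower and 6.86% higher values at that p. MCTS1, which with DENR forms a heterodimer that recycles small subunits and promotes reinitiation, had 10.91, 10.88 and 10.50 with CpG ascites, against 11.12, 11.15 and 11.19 with saline ascites. The change was -0.39 ± 0.15 (SE) with an adjusted p of 0.353 in limma. DENR, added as its partner after the values were seen, had 11.78, 12.07 and 11.70 with CpG ascites, against 12.31, 12.19 and 12.16 with saline ascites, and -0.37 ± 0.14 with an adjusted p of 0.355 in limma. In both genes of this pair the CpG arrays lay below all saline arrays. Over the 22 cofactors groups were apart at 4 lower genes and 1 higher gene, beside 9.82% lower and 10.9% higher over all kept probes. NCBP1 and NCBP2 of the same list were also added after their values were seen. NCBP1 had -0.415 ± 0.167 with groups apart. NCBP2 had 0.13 ± 0.14 with overlapping groups, or 0.06 without CpG ascites replicate 1. Elongation factors, with 10 genes measured, had 0 at that p and a median of 0.05, and of 3 termination genes 0 had such a p.

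**Figure D4:**
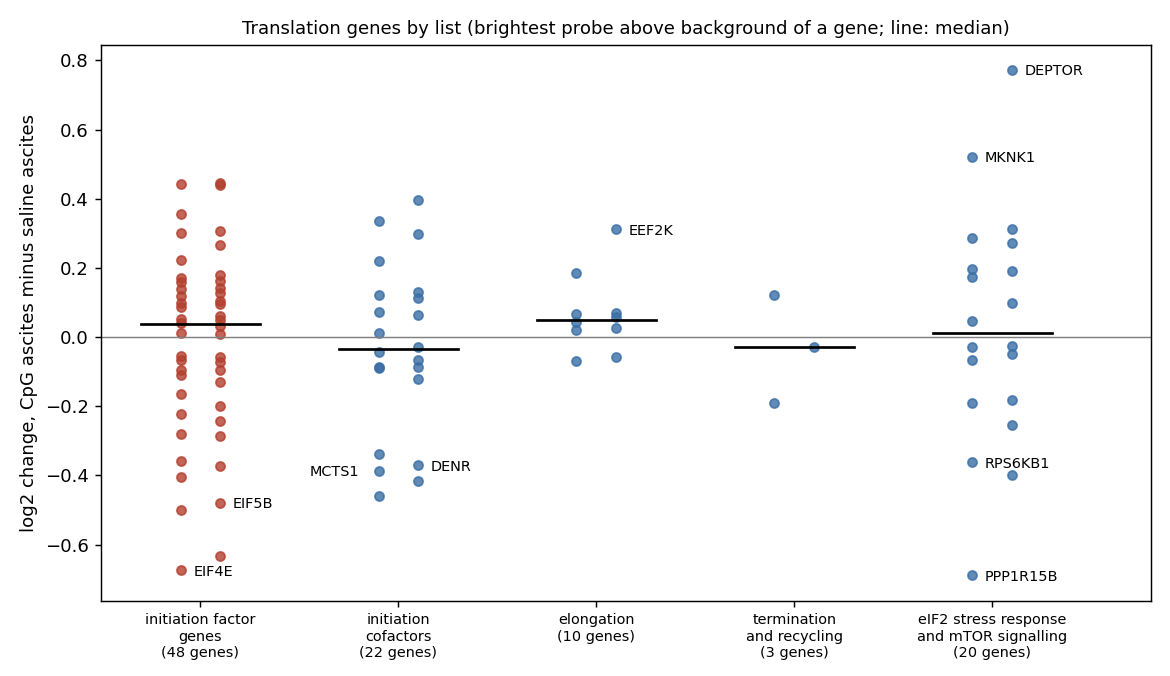
Log2 change, CpG ascites minus saline ascites (vertical axis), at the brightest kept probe of each initiation factor gene (red) and of each gene in 4 other translation lists (blue); lines are medians and some genes are named. The list medians lie near 0, and DEPTOR at 0.77 and PPP1R15B at -0.69 are the outermost points of the blue lists.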

How the data were processed

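RNA of IGROV-1 cells was profiled on 1-colour Illumina bead arrays, 3 per group; groups and replicate numbers came from the sample titles. Per the submitters' processing notes, arrays were summarised with BeadStudio, version not stated. The deposited probe intensity is not normalized, per the file headers, and comes with a detection p-value per probe and array, per the file headers. The authors' processed intensity table is linear, with a median of 121 on every array; its method, not given in the sources used here, stayed unknown, and it served as an alternative.

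Intensities were background corrected, quantile normalized and put on a log2 scale with neqc of limma 3.58.1 in R 4.3.3 (offset 16), which understates changes of dim probes. The group difference was fitted by limma's lmFit and eBayes without covariates, two-sided, adjusted by Benjamini and Hochberg over 13713 probes. Values after ± are SE. The number of arrays limits the precision. Gene names are those of the platform annotation, and all 53 member symbols are the same in the RefSeq gene table. The fit was tested on simulated data.

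Named in full are the 12 member probes with the smallest p, other kept probes of their genes, the 2 genes with the brightest probes of each step, and 4 other translation genes with the smallest p; any other kept member may be named. Members, steps and lists were chosen with earlier results of these data known. No set test was run.

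Alternatives changed the background step (normexp offset 50, or no correction), the scaling (medians), the input (the authors' values), the filter (none, or detection on all 6 arrays) and the fit (mean-variance trend, weighted arrays, replicate number as a block). Others left out 1 array in turn or averaged a gene's probes.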

Additional observations from a re-analysis of the deposited data

How the results depend on the processing

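In none of the alternatives run did an initiation factor probe or another translation gene pass the adjusted test. Over all kept probes, 0 passed with all arrays, 1 without background correction, 1 with the authors' values, 14 with a mean-variance trend, and 0 to 21 with 1 array left out, the 21 without CpG ascites replicate 1. Member probes at an unadjusted p under 0.05 numbered 11, beside 12.8% of all probes, against 5 with median scaling (9.03%) and 5 to 12 with 1 array left out (7.02% to 16.9%). The count was 13 with an offset of 50, without background correction, with the authors' values and with detection on all 6 arrays. It was 14 with a mean-variance trend, 14 of 76 without a filter and 9 with array weights. In the settings of these last 2 sentences the members' share was above that of all probes, and with median scaling it was below. Member probes whose groups did not overlap numbered 16 (27.1%, beside 20.7% of all probes) and 14 with median scaling. With 1 array left out they numbered 17 to 25, where smaller groups separate more easily. Without CpG ascites replicate 1 the share was 33.9%, beside 32% of all probes. For median scaling and the other arrays left out, the share over all probes was not counted. Of 540 values of 36 named probes under 15 alternatives, 526 kept their sign. The 14 that did not were at small changes or rested on 1 array. With median scaling they were EIF4A1 (0.095) and EIF6 (0.038), and with array weights EIF4A2 (-0.0096). The others arose with 1 array left out, where changes ran from -0.84 to 0.32 and from -1.10 to 0.25 for the EIF4G1 probes, -0.46 to 0.052 for EIF5A, -0.15 to 0.0060 for EIF1, -0.0081 to 0.15 for EIF2B4, -0.045 to 0.062 for EIF4A2, -0.025 to 0.115 for the second EIF4H probe, -0.13 to 0.035 for EIF4A1, -0.13 to 0.023 for EIF6 and -0.033 to 0.065 for EIF2A. CpG ascites replicate 1 was the array left out in 7 of these cases. The causes were not tested. The samples share only a replicate number: deviations of same-numbered samples correlated at -0.10, 0.01 and -0.02. With the replicate block 10 member probes had an unadjusted p under 0.05, or 16.9%, beside 10.7% of all probes. In that setting 0 probes passed the adjusted test. Dim probes, such as that of EIF1AD, lie near background, where changes are understated.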
